A study of Mus musculus with 9 samples.

Results

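Death receptors and the genes of necroptosis were followed in mouse liver after an overdose of acetaminophen (APAP), with or without dmPGE2 given beforehand. The set holds 10 of the 21870 genes of the mRNA table, found by gene symbol: the receptor genes Tnfrsf12a, Tnfrsf1a, Tnfrsf1b, Tnfrsf10b and Fas, then Casp8 and Cflar of the caspase-8 complex, then Ripk1, Ripk3 and Mlkl of the necroptosis pathway. All livers came from wild-type (WT) C57 BL6 mice aged 8 weeks, with an average weight of 20 g. The dmPGE2+APAP mice received dmPGE2 (300 µg/kg), a prostaglandin E2 analogue that resists breakdown, and 1 h later APAP at 500 mg/kg. The APAP mice received the same APAP dose alone, and the control mice received saline. Both drugs were injected intraperitoneally, livers were taken 6 h after APAP, and each group has 3 libraries of ribosome-depleted total RNA. The labels number the libraries of a group but do not say whether each is a separate animal, so p-values measure the spread between these libraries. No group received dmPGE2 alone.

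Receptors of the tumour necrosis factor (TNF) superfamily carry signals for survival, inflammation or death, and those with an intracellular death domain, such as TNFR1 and FAS, can assemble a complex of FADD and caspase-8. In that complex caspase-8 starts apoptosis, and together with the caspase-like protein cFLIP it keeps the kinases RIPK1 and RIPK3 in check. Where caspase-8 is inactive, RIPK1 and RIPK3 can join and RIPK3 phosphorylates MLKL, which breaks the plasma membrane, a form of death called necroptosis. Hepatocytes are known for their sensitivity to FAS and for very low RIPK3, and APAP overdose kills them mainly by necrosis around the central veins.

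The sequences before the start sites are shown for Tnfrsf12a and Tnfrsf1b, the receptors that were higher in both treated groups in every setting tried, and for Fas. They are the 250 bases upstream of the RefSeq start site in GRCm38.p6, on the strand of the gene, at chr17:23677450-23677699 (minus), chr4:145246871-145247120 (minus) and chr19:34290409-34290658 (plus). Capitals mark matches, on either strand, to 5 motifs: the AP-1 motif (TGANTCA), the cAMP response element (TGACGTCA), the kappaB motif, the TATA box (TATAAA) and the GC box (GGGCGG).
Tnfrsf12a: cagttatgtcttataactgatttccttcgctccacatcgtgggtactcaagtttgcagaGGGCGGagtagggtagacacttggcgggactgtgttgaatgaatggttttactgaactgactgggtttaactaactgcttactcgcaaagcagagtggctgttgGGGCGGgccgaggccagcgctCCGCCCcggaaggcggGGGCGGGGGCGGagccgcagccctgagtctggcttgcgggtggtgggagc
Tnfrsf1b: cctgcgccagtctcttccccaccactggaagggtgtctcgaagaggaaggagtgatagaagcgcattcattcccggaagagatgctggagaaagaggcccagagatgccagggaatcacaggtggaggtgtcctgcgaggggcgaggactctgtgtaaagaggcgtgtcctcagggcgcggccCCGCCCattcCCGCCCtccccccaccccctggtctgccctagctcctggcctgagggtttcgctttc
Fas: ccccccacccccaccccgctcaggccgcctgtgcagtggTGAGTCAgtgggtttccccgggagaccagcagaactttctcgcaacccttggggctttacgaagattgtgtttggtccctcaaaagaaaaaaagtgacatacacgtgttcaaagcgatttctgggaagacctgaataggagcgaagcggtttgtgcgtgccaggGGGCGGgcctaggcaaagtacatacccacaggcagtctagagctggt
The Tnfrsf12a sequence holds 5 GC boxes, the nearest to the start site at -50 and -44, where they adjoin. A count of 5 was the highest among the member windows, and those of Ripk1 held 3 and 4. At least 5, a cutoff set by the Tnfrsf12a count, were found in 2.71% of the 32851 promoter windows of 300 bases. These windows run from 250 bases before to 50 after the start site, and 35.7% held at least 1 GC box. The Tnfrsf12a window was 59.7% GC, against a median of 52.7% over all promoters. Tnfrsf1b had GC boxes at -67 and -57. Fas was the single member with an AP-1 match (at -211), a motif present in 7.81% of all windows. The 9 members with an entry gave 10 windows, since Ripk1 has 2 start sites, and 9 of these 10 held no match to AP-1, the cAMP response element (1.79% of all windows) or kappaB (4.51%). The Cflar window held a TATA box at -132 (13.6% of all windows). These matches describe letters in the windows and say nothing of which factors bind there.

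Depth is not known, since the deposited values are FPKM, fragments scaled by transcript length and library total. The mRNA values of a library added up to 371958.2 to 393937.6 FPKM, and 9979 to 10321 genes reached at least 1 FPKM. On the first principal component of the tested genes (51.3% of the variance) all 6 treated libraries lay below 0 and the controls above it. On the second (12.6%) control replicate 3 stood apart, at 32.7, with the other controls at -15.6 and -16.1. Log2 values against control are therefore also given without it for Tnfrsf12a, Fas and Ripk3, and not for the pathway genes. The hepatocyte markers (6 of 6 tested, albumin among them) summed to between 41250 and 45580 FPKM in dmPGE2+APAP livers, between 39800 and 46860 in APAP livers and between 34780 and 37340 in controls. Of these 6, 1 was called higher in APAP livers than in controls, 0 in dmPGE2+APAP livers, and 0 lower in either. Their median log2 fold change was 0.0508 in APAP livers and 0.137 in dmPGE2+APAP livers. Mean FPKM was above control in both treated groups for Alb, the largest part of the sum, and Apoa1. It was below control in both for Ttr, Serpina1c and Cyp2e1, and for Cps1 in APAP livers only. In whole liver, fewer cells of a type and less RNA per cell cannot be told apart.

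The members fell into tiers of expression, compared as levels in FPKM, which is per length. In dmPGE2+APAP livers Tnfrsf1a was first at 23.7 ± 4.1 FPKM (mean ± SD, n = 3 per group here and below). Cflar, Tnfrsf1b and Tnfrsf12a came next there and overlapped in range with each other. The top of the order in APAP livers was Tnfrsf12a at 31.6 ± 8.27 FPKM, overlapping with Tnfrsf1a at 30.2 ± 3.64. Control livers had Tnfrsf1a (29.9 ± 3.82) and Cflar (28.7 ± 0.831) first, with overlapping ranges. Casp8, Tnfrsf1b, Ripk1, Fas and Tnfrsf12a followed there between 12 and 3.72 FPKM, and of these neighbours Fas and Tnfrsf12a overlapped. Ripk3, Mlkl and Tnfrsf10b were the 3 lowest members in each group, and in controls their ranges were separate, at 0.546 ± 0.145, 1.19 ± 0.199 and 0.0658 ± 0.0278 FPKM.

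**Figure D1:**
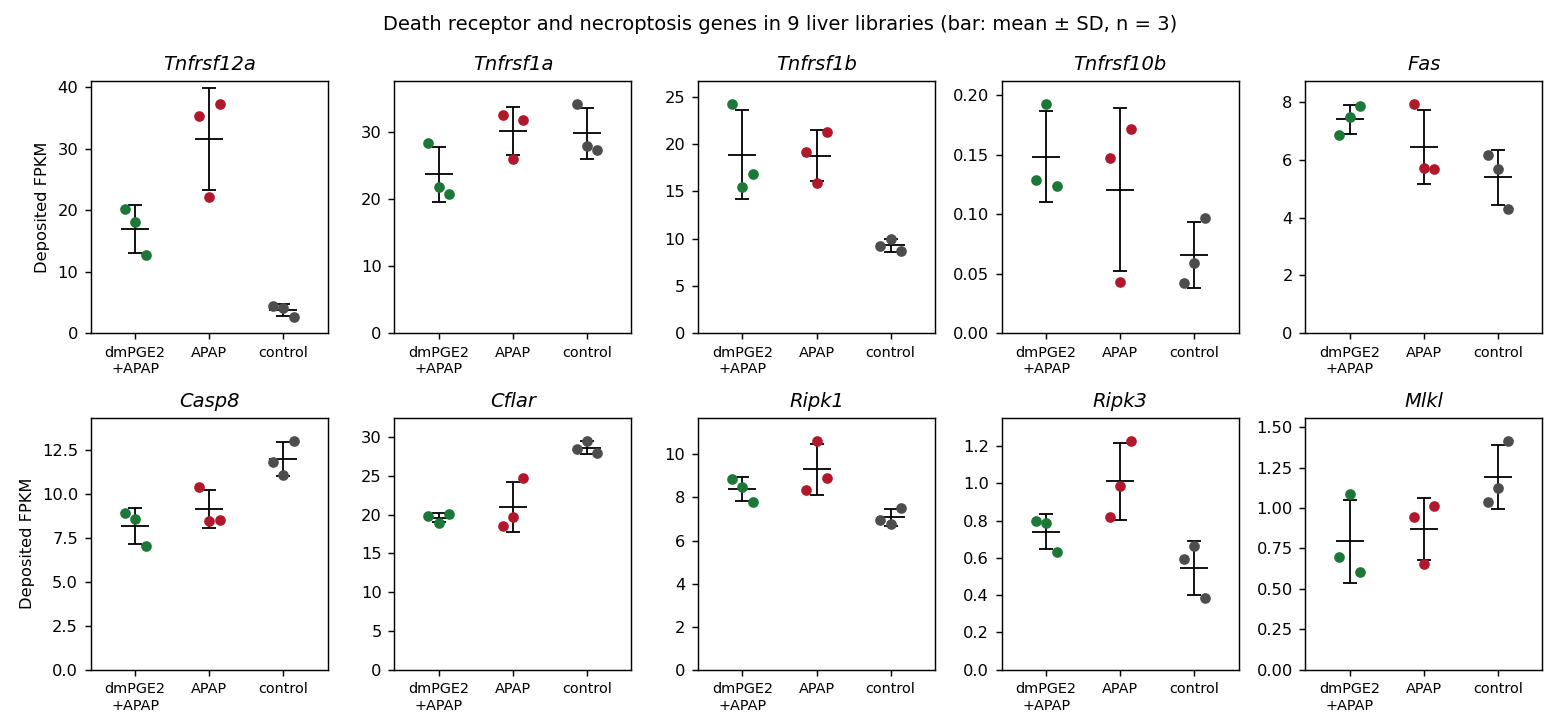
Deposited FPKM of the 10 members in each library (points, in replicate order), with the mean ± SD of each group as bars (n = 3), each panel on its own linear axis from 0. Tnfrsf12a separates all 3 groups, with 12.65 to 20.2 FPKM in dmPGE2+APAP livers, 22.1 to 37.3 in APAP livers and 2.63 to 4.45 in controls.

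Among the receptors, Tnfrsf12a showed the largest fold of all members against control. It encodes FN14, the receptor for the cytokine TWEAK, a small receptor without a death domain that is induced in injured tissue (ENSMUSG00000023905, GRCm38 chr17:23675445-23677468, minus strand). Its level was 20.2, 18.1 and 12.65 FPKM in dmPGE2+APAP livers, 35.4, 22.1 and 37.3 in APAP livers, and 4.45, 4.09 and 2.63 in controls. The 3 groups did not overlap, with APAP highest and control lowest. In APAP livers it was 9.06-fold higher than in controls (log2 3.18, SE 0.272, limma adjusted p = 0.000182). In dmPGE2+APAP livers it was 4.93-fold higher than in controls (log2 2.30, SE 0.272, adjusted p = 0.000986). Without control replicate 3 the log2 value was 2.05 in dmPGE2+APAP livers and 2.93 in APAP livers, and both calls held.

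Tnfrsf1b, which encodes TNFR2, a TNF receptor without a death domain that is found mainly on immune and endothelial cells (ENSMUSG00000028599, chr4:145213463-145246870, minus strand), also rose in both treated groups. It stood at 24.2, 15.5 and 16.8 FPKM in dmPGE2+APAP livers, 19.1, 15.9 and 21.3 in APAP livers, and 9.22, 9.99 and 8.66 in controls. Treated libraries overlapped with each other and all lay above the controls. The fold was 2.19 in both comparisons with control (log2 1.13 and SE 0.182 in each, adjusted p = 0.00437 for dmPGE2+APAP and 0.00341 for APAP). Tnfrsf1a, which encodes TNFR1, the death domain receptor for TNF (ENSMUSG00000030341, chr6:125349362-125362484, plus strand), passed no test. It had 28.4, 21.9 and 20.8 FPKM in dmPGE2+APAP livers, 32.7, 26 and 31.9 in APAP livers, and 34.3, 28 and 27.4 in controls, and all groups overlapped. The ratio of Tnfrsf1a to Tnfrsf1b was 1.27 ± 0.125 in dmPGE2+APAP livers, 1.61 ± 0.104 in APAP livers and 3.22 ± 0.462 in controls, given here as a description.

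Tnfrsf1b is also a gene of leukocytes, whose markers did not move as one. The 8 neutrophil markers summed to 7.22, 11.6 and 5.53 FPKM in dmPGE2+APAP livers, 41.9, 10.3 and 10.8 in APAP livers and 7.12, 3.85 and 2.75 in controls. Of the 6 tested, 4 were called higher in APAP livers than in controls (Clec4d, Retnlg, Csf3r and S100a8) and 1 in dmPGE2+APAP livers (Clec4d). Over all genes, 11.7% were called higher in APAP livers and 8.76% in dmPGE2+APAP livers. Clec4d reached 0.5 FPKM, the filter for the tests, in APAP libraries only, so it had to come out higher there than in the other groups. It was at 0.253 to 0.412 FPKM in dmPGE2+APAP livers and 0.0224 to 0.0443 in controls. Ly6g was under 0.1 FPKM in every library. Without APAP replicate 1, the library with the highest neutrophil sum, the log2 fold change of Tnfrsf1b in APAP livers was 1.11 (adjusted p = 0.0158). The 10 Kupffer cell and macrophage markers summed to 159 to 167 FPKM in dmPGE2+APAP livers. They summed to 90.5 to 154 FPKM in APAP livers and 142 to 164 in controls. Of these 1 was called, Cd68, higher in APAP livers, where the mean deposited FPKM of each of the rest was below control. Sinusoidal endothelium markers summed to 84.4 to 87.8 FPKM in dmPGE2+APAP livers, 61.9 to 84.7 in APAP livers and 70.2 to 74.4 in controls. Of the 6 tested, 2 were called higher and 1 lower in dmPGE2+APAP livers, and 1 higher and 1 lower in APAP livers. Lyve1 was higher and Kdr lower than in controls in both treated groups. Cdh5 was at 10.95 to 12.4 FPKM in dmPGE2+APAP livers, 6.99 to 9.89 in APAP livers and 7.68 to 9.07 in controls. Stellate cell markers summed to 143 to 157 FPKM in dmPGE2+APAP livers, 138 to 150 in APAP livers and 100.1 to 134 in controls. Dcn was called higher in both treated groups. Lrat was lower in every treated library (2.95 to 3.63 FPKM) than in controls (4.16 to 4.53). Mean FPKM of each of the other stellate cell markers was above control in both treated groups. Cholangiocyte markers summed to 20.8 to 32.5 FPKM in dmPGE2+APAP livers, 24.3 to 44.7 in APAP livers and 13.7 to 30.1 in controls. Of the 4 tested, Sox9 alone was called, higher in both treated groups. Mean FPKM in dmPGE2+APAP livers was above control for Spp1, Epcam and Cldn4 too, and below it for Krt19 and Krt7. The 8 lymphocyte markers summed to 0.776 to 1.32 FPKM in dmPGE2+APAP livers, 0.795 to 1.22 in APAP livers and 1.97 to 2.36 in controls, lower where Tnfrsf1b was higher, and none passed the filter. Between dmPGE2+APAP and APAP the median of the 6 tested neutrophil markers was -1.08 on the log2 scale, with Tnfrsf1b at 0.996 of APAP. The part of these cell types in the levels of the members was not tested.

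Fas, the receptor for FAS ligand and a death domain receptor of hepatocytes (ENSMUSG00000024778, chr19:34290666-34327772, plus strand), had 6.885, 7.5 and 7.88 FPKM in dmPGE2+APAP livers. It had 7.95, 5.73 and 5.7 FPKM in APAP livers and 6.17, 5.71 and 4.31 in controls. The dmPGE2+APAP libraries all lay above the controls, and the APAP libraries overlapped with both other groups. Fas in dmPGE2+APAP livers was 1.52-fold higher than in controls (log2 0.60, SE 0.175, adjusted p = 0.0464), and in APAP livers 1.31-fold (log2 0.39, SE 0.175, adjusted p = 0.150). The first call was lost when any of 7 of the 9 libraries was left out (all but APAP replicate 1 and control replicate 1), and without control replicate 3 the log2 value was 0.43. Tnfrsf10b, which encodes the mouse death receptor for TRAIL (ENSMUSG00000022074, chr14:69767472-69784411, plus strand), was at 0.129, 0.193 and 0.124 FPKM in dmPGE2+APAP livers, 0.147, 0.043 and 0.171 in APAP livers and 0.0422, 0.0589 and 0.0964 in controls. It did not reach 0.5 FPKM in any library and was not tested, so 9 of the 10 members were.

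Of the genes of the caspase-8 complex, Cflar was called lower in dmPGE2+APAP livers and Casp8 was called in neither treated group. Cflar encodes cFLIP, the partner that restrains caspase-8 (ENSMUSG00000026031, chr1:58711508-58758884, plus strand). Its level was 19.9, 18.9 and 20.1 FPKM in dmPGE2+APAP livers, 18.6, 19.7 and 24.7 in APAP livers, and 28.5, 29.6 and 27.9 in controls. The 3 dmPGE2+APAP values lay close together, and APAP replicate 3 was the highest of the treated libraries. The difference passed in dmPGE2+APAP livers (0.756 of control, log2 -0.40, SE 0.110, adjusted p = 0.0371) and missed the threshold in APAP livers (0.799 of control, log2 -0.32, SE 0.110, adjusted p = 0.0673). Of these, the dmPGE2+APAP call was lost without any 1 of 6 libraries (each dmPGE2+APAP library, APAP replicate 2, and control replicates 1 and 2). The APAP value passed without APAP replicate 3 (log2 -0.44, adjusted p = 0.0209) and with no rescaling of the libraries, in which each FPKM is otherwise divided by a factor for its library (log2 -0.46, adjusted p = 0.0156).

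Casp8 encodes caspase-8 itself, the protease that starts apoptosis from death receptors (ENSMUSG00000026029, chr1:58795374-58847503, plus strand). It lies 36489 bp from Cflar with 1 annotated gene between them. Casp8 stood at 8.91, 8.605 and 7.03 FPKM in dmPGE2+APAP livers, 10.4, 8.49 and 8.54 in APAP livers and 11.8, 11.1 and 13.1 in controls. In deposited FPKM the treated libraries overlapped with each other and none reached the controls. After the rescaling used for the tests APAP replicate 1 (10.7) passed control replicate 2 (10.6), and the dmPGE2+APAP libraries (7.3 to 9.41) stayed below the controls. The test fell just short in dmPGE2+APAP livers (0.752 of control, log2 -0.41, SE 0.122, adjusted p = 0.05004 at a threshold of 0.05). In APAP livers it was 0.837 of control (log2 -0.26, SE 0.122, adjusted p = 0.166), and with no rescaling it was called lower there (log2 -0.39, adjusted p = 0.0475) and in dmPGE2+APAP livers (log2 -0.55, adjusted p = 0.0162). The ratio of Cflar to Casp8, whose products meet in the complex, was 2.43 ± 0.369 in dmPGE2+APAP livers, 2.33 ± 0.55 in APAP livers and 2.4 ± 0.261 in controls. The ratios of all groups overlapped.

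Both kinases of the necrosome rose in APAP livers, and Mlkl, which acts after them, was not called in either treated group. Ripk1 encodes the kinase that links TNFR1 to survival, apoptosis or necroptosis (ENSMUSG00000021408, chr13:34002363-34037147, plus strand). It was at 8.87, 8.5 and 7.79 FPKM in dmPGE2+APAP livers, 8.37, 10.6 and 8.91 in APAP livers, and 6.96, 6.75 and 7.51 in controls. All treated libraries lay above all controls. In APAP livers the fold was 1.43 (log2 0.52, SE 0.111, adjusted p = 0.0118), a call that held in all 20 other settings. For dmPGE2+APAP livers the fold was 1.3 (log2 0.38, SE 0.111, adjusted p = 0.0477), and leaving out any library other than APAP replicate 2 ended the call. Ripk1 shares 432 bp with Serpinb6a on the opposite strand, which averaged 6.81 FPKM in dmPGE2+APAP livers, 7.13 in APAP livers and 6.33 in controls. Whether the quantification used strand is not recorded, so the part of those reads in the Ripk1 value was not tested.

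Ripk3, the kinase that phosphorylates MLKL (ENSMUSG00000022221, chr14:55784995-55788865, minus strand), was near the filter of 0.5 FPKM. It was at 0.798, 0.789 and 0.631 FPKM in dmPGE2+APAP livers, 0.818, 0.987 and 1.23 in APAP livers, and 0.594, 0.661 and 0.383 in controls. In deposited FPKM the APAP libraries lay above all others and dmPGE2+APAP overlapped with control. After rescaling, dmPGE2+APAP (0.654 to 0.843) overlapped with APAP (0.841 to 1.25), and both lay above the controls (0.348 to 0.628). In APAP livers Ripk3 was 1.88-fold higher than in controls (log2 0.91, SE 0.229, adjusted p = 0.0231), and in dmPGE2+APAP livers 1.43-fold (log2 0.52, SE 0.229, adjusted p = 0.160). Its call in APAP livers was lost without APAP replicate 2 (adjusted p = 0.0552) or 3 (adjusted p = 0.0790), and with only the APAP and control libraries fitted (adjusted p = 0.0539). Its log2 value was 0.69 without control replicate 3, and 0.43 with 1 FPKM added before the log in place of 0.1, where the call held (adjusted p = 0.0207). Without APAP replicate 1, the library with the highest neutrophil sum, it was 1.04 (adjusted p = 0.0327).

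Mlkl encodes the protein that breaks the membrane in necroptosis (ENSMUSG00000012519, chr8:111311797-111338177, minus strand). It had 0.699, 1.09 and 0.602 FPKM in dmPGE2+APAP livers, 0.946, 0.651 and 1.01 in APAP livers and 1.04, 1.12 and 1.42 in controls. In deposited FPKM all treated libraries but dmPGE2+APAP replicate 2 lay below every control, and after rescaling APAP replicate 3 (1.03) also lay above control replicate 1 (0.993). Neither difference passed: 0.744 of control in dmPGE2+APAP livers (adjusted p = 0.238) and 0.812 in APAP livers (adjusted p = 0.383). The ratio of Ripk1 to Ripk3 was 11.4 ± 0.834 in dmPGE2+APAP livers, 9.42 ± 1.9 in APAP livers and 13.8 ± 5.04 in controls.

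Counted over the set, 4 of 9 tested members were called higher in APAP livers than in controls (Tnfrsf12a, Tnfrsf1b, Ripk1 and Ripk3) and 0 lower. Among all 11557 genes tested, 21% were called in that comparison, 11.7% higher and 9.24% lower. In dmPGE2+APAP livers 4 of 9 were called higher than in controls (Tnfrsf12a, Tnfrsf1b, Fas and Ripk1) and 1 lower (Cflar), against 16.3% of all genes, 8.76% higher and 7.55% lower. The median log2 fold change of the 9 was 0.39 in APAP livers, against -0.0084 over all genes, and 0.38 in dmPGE2+APAP livers, against -0.00021 over all genes. Both comparisons use the same 3 controls. The rescaling of libraries shifted log2 FPKM by 0.141 for dmPGE2+APAP against control and 0.135 for APAP against control, and by less in genes near the added 0.1. With no rescaling the signs of all 9 members were kept and the calls were not: 2 members were higher (Tnfrsf12a and Tnfrsf1b) and 2 lower (Casp8 and Cflar) in dmPGE2+APAP livers, and the 0 lower in APAP livers became 2 (Casp8 and Cflar). In APAP livers Cflar was also called lower with array weights and without APAP replicate 3. The split over all genes did depend on it: of the genes called against control, 53.7% were higher in dmPGE2+APAP livers and 56% in APAP livers, and with no rescaling 28.5% in dmPGE2+APAP livers and 31.6% in APAP livers. The count of 5 in dmPGE2+APAP livers fell to 2 or 3 when single libraries were left out, except without APAP replicate 1, and Tnfrsf12a and Tnfrsf1b were the members called under every setting.

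**Figure D2:**
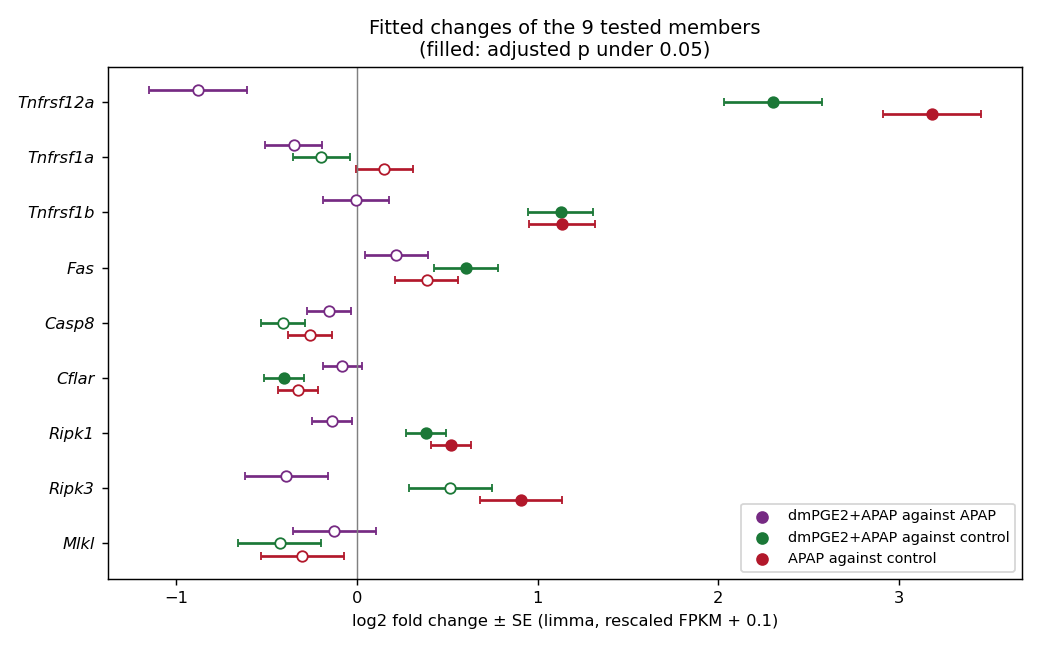
Fitted log2 fold change ± SE of the 9 tested members in the 3 comparisons, from limma on rescaled FPKM + 0.1, with filled points for an adjusted p under 0.05. All points of dmPGE2+APAP against APAP are open, and Tnfrsf12a is the farthest from 0 in each comparison (log2 -0.88, 2.30 and 3.18 down the page).

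The comparison of dmPGE2+APAP with APAP asks what the pretreatment changed in injured liver. Of the 9 members 0 passed in limma, as did 0 of all 11557 genes (0% called). At an unadjusted p under 0.05 there were 1 member and 1078 genes. That member was Tnfrsf12a, lower in all 3 dmPGE2+APAP libraries than in any APAP library, at 16.96 ± 3.88 FPKM in dmPGE2+APAP livers and 31.6 ± 8.27 in APAP livers. Its fitted level was 0.544 of that in APAP livers, with a 95% interval of 0.355 to 0.834 (log2 -0.88, SE 0.272, unadjusted p = 0.0103, adjusted p = 0.386). Over the 20 other settings its log2 value ran between -1.11 and -0.68 and its adjusted p between 0.143 and 0.876. Neutrophil markers summed to 5.53 to 11.6 FPKM in dmPGE2+APAP livers and 10.3 to 41.9 in APAP livers. Of the 6 tested, 0 were called and 3 were at an unadjusted p under 0.05, beside 1078 of all 11557 genes. Clec4d, among the 6, reached the filter in APAP libraries only, so it had to come out lower in dmPGE2+APAP livers. The part of these markers in the Tnfrsf12a value was not tested.

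For the other members the fitted ratio of dmPGE2+APAP to APAP is given with its 95% interval, without adjustment for the number of genes. The level of Tnfrsf1a in dmPGE2+APAP livers was 0.786 of that in APAP livers (interval 0.614 to 1.005, adjusted p = 0.549). The ratio was 0.996 for Tnfrsf1b (0.75 to 1.32), 1.16 for Fas (0.884 to 1.53), 0.946 for Cflar (0.796 to 1.12) and 0.899 for Casp8 (0.743 to 1.09). It was 0.908 for Ripk1 (0.763 to 1.08), 0.763 for Ripk3 (0.533 to 1.09) and 0.916 for Mlkl (0.64 to 1.31). Each of these intervals includes equality, and none of them shows that the groups were alike. The median over the 9 was -0.14 on the log2 scale.

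Around the members, 70 genes in 7 role groups were examined, of which 59 passed the filter. Of these, 3 (Tnfsf10, Tnfrsf11b and Tnfrsf19) reached it in control libraries only and so had to come out lower, as they did in both comparisons with control. Among the other 56, 10 were called higher and 6 lower in APAP livers, beside 11.7% and 9.24% of all genes, and the median was -0.0093 on the log2 scale. In dmPGE2+APAP livers 8 of the 56 were called higher and 6 lower, beside 8.76% and 7.55% of all genes, and the median was -0.055. Between dmPGE2+APAP and APAP 0 passed, and 2 reached an unadjusted p under 0.05: Tnip1 at 0.774 of APAP (adjusted p = 0.478) and Tnfrsf11b at 0.669 (adjusted p = 0.422). Of the 36 calls against control, these 3 genes included, 22 held in every setting that gave a value. The 17 calls in dmPGE2+APAP livers became 9 without dmPGE2+APAP replicate 2 and 11 without dmPGE2+APAP replicate 3 or control replicate 2.

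Ligands were scarce. Tnf was at 0.0437 to 0.0547 FPKM in dmPGE2+APAP livers, 0.039 to 0.149 in APAP livers and 0.0829 to 0.183 in controls, Fasl reached at most 0.458 FPKM, and Lta and Tnfsf15 were under 0.1 in every library. Tnfsf12, which encodes TWEAK, the ligand of the Tnfrsf12a product, was at 1.24 ± 0.138 FPKM in dmPGE2+APAP livers, 1.45 ± 0.483 in APAP livers and 1.83 ± 1.2 in controls, and its differences did not pass (adjusted p = 0.704 for dmPGE2+APAP and 0.921 for APAP against control). Tnfsf10, which encodes TRAIL, was at 0.186, 0.192 and 0.155 FPKM in dmPGE2+APAP livers, 0.23, 0.289 and 0.299 in APAP livers and 1.44, 1.45 and 1.97 in controls. The groups did not overlap. Tnfsf10 reached the filter in control libraries only, so it had to come out lower. Its fitted level in limma was 0.177 of control in dmPGE2+APAP livers (adjusted p = 0.000138) and 0.237 in APAP livers (adjusted p = 0.000259). With 1 FPKM added in place of 0.1 it was 0.472 of control in dmPGE2+APAP livers and 0.511 in APAP livers.

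Other receptors of the superfamily moved in both directions. Tnfrsf21, which encodes the death receptor DR6, was at 2.94 ± 0.28 FPKM in dmPGE2+APAP livers, 3.08 ± 0.358 in APAP livers and 1.84 ± 0.181 in controls, and it rose 1.72-fold in dmPGE2+APAP livers and 1.79-fold in APAP livers. Tnfrsf14, which encodes HVEM, stood at 1.79 ± 0.549 FPKM in dmPGE2+APAP livers, 1.74 ± 0.207 in APAP livers and 3.8 ± 0.212 in controls, and was called lower in both treated groups. Tnfrsf11b, which encodes osteoprotegerin, a secreted decoy receptor, was at 0.304 of control in dmPGE2+APAP livers and 0.455 in APAP livers, and Tnfrsf19 at 0.332 in dmPGE2+APAP livers and 0.335 in APAP livers. Tnfrsf11b and Tnfrsf19 reached the filter in control libraries only, so they had to come out lower. The Tnfrsf19 call was lost in 3 of 19 settings in each treated group. With single libraries left out its log2 value ran between -1.83 and -1.245 in dmPGE2+APAP livers and between -1.81 and -1.23 in APAP livers. With 1 FPKM added in place of 0.1, Tnfrsf11b was at 0.626 of control in dmPGE2+APAP livers and 0.707 in APAP livers, and Tnfrsf19 at 0.615 in dmPGE2+APAP livers and 0.613 in APAP livers. Ltbr, the lymphotoxin beta receptor gene, was lower in dmPGE2+APAP livers (0.744 of control, adjusted p = 0.0379), a call lost in 11 of 20 settings.

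Adaptors split as well. Fadd, the adaptor that joins FAS to caspase-8, was at 1.38, 1.37 and 1.26 FPKM in dmPGE2+APAP livers, 1.51, 1.4 and 1.02 in APAP livers and 2.31, 2.5 and 2.58 in controls. All treated libraries lay below all controls, at 0.616 of control in dmPGE2+APAP livers (adjusted p = 0.0158) and 0.594 in APAP livers (adjusted p = 0.00955). Ticam1, which encodes TRIF, the adaptor by which Toll-like receptors reach RIPK1 and RIPK3, rose 1.46-fold in dmPGE2+APAP livers and 1.54-fold in APAP livers. Traf5 was lower in both treated groups (0.613 of control in dmPGE2+APAP livers and 0.628 in APAP livers), Tradd, the adaptor of TNFR1, in APAP livers (0.739 of control, adjusted p = 0.0325), and Traf6 higher in dmPGE2+APAP livers (1.26-fold, adjusted p = 0.0477). Leaving out single libraries ended the calls of Traf5, Tradd and Traf6, and that of Fadd in dmPGE2+APAP livers.

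Among genes that act on RIPK1 through ubiquitin or phosphate, 0 were called lower in either treated group. Over all genes, 7.55% were called lower in dmPGE2+APAP livers and 9.24% in APAP livers. Of 13 ubiquitin regulators, some of which restrain and some of which promote death signals, 5 rose in APAP livers, beside 11.7% of all genes: Tnfaip3 (2.26-fold, the A20 gene), its partners Tnip1 (1.63-fold) and Tnip2 (1.62-fold), the ligase gene Peli1 (1.57-fold) and Spata2 (1.35-fold), whose product brings the deubiquitinase CYLD to the complex. In dmPGE2+APAP livers Peli1 alone passed, at 1.48-fold, beside 8.76% of all genes called higher, and whether the 2 treated groups differ was tested for each gene with 0 calls. Of 10 kinases and partners that act on RIPK1, Mapkapk2, which encodes the kinase MK2, was at 49.6 ± 3.06 FPKM in dmPGE2+APAP livers, 54.5 ± 3.97 in APAP livers and 26.3 ± 2.55 in controls, a rise of 2.08-fold in dmPGE2+APAP livers and 2.28-fold in APAP livers. Tbk1 rose 1.37-fold in dmPGE2+APAP livers and 1.49-fold in APAP livers, and Tab2 rose 1.26-fold in dmPGE2+APAP livers. Calls of Tnfaip3 and Spata2 in APAP livers, and of Tbk1 and Tab2 in dmPGE2+APAP livers, were lost when some single libraries were left out. The log2 value of Tnfaip3 in APAP livers was 1.18, and ran between 0.81 and 1.42 with single libraries left out.

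Of 10 genes of the executioner branch of apoptosis 2 were called lower in both treated groups. The share of all genes called lower was 7.55% in dmPGE2+APAP livers and 9.24% in APAP livers. The 2 were Dffa, which encodes the inhibitor of the apoptotic DNase (0.634 of control in dmPGE2+APAP livers and 0.648 in APAP livers), and Casp9, the initiator caspase of the mitochondrial route (0.683 of control in dmPGE2+APAP livers and 0.703 in APAP livers). The Casp9 calls were lost without single libraries. Of 9 cofactors of necroptosis and membrane repair 1 was called, beside 16.3% of all genes in dmPGE2+APAP livers and 21% in APAP livers. That gene was Hsp90aa1, a chaperone that RIPK1, RIPK3 and MLKL depend on. It was at 67.3, 56.2 and 65.3 FPKM in dmPGE2+APAP livers, 124.7, 58.3 and 76.2 in APAP livers and 30.5, 26.3 and 23 in controls. Every treated library lay above every control, and the fold was 2.61 in dmPGE2+APAP livers and 3.4 in APAP livers.

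**Figure D3:**
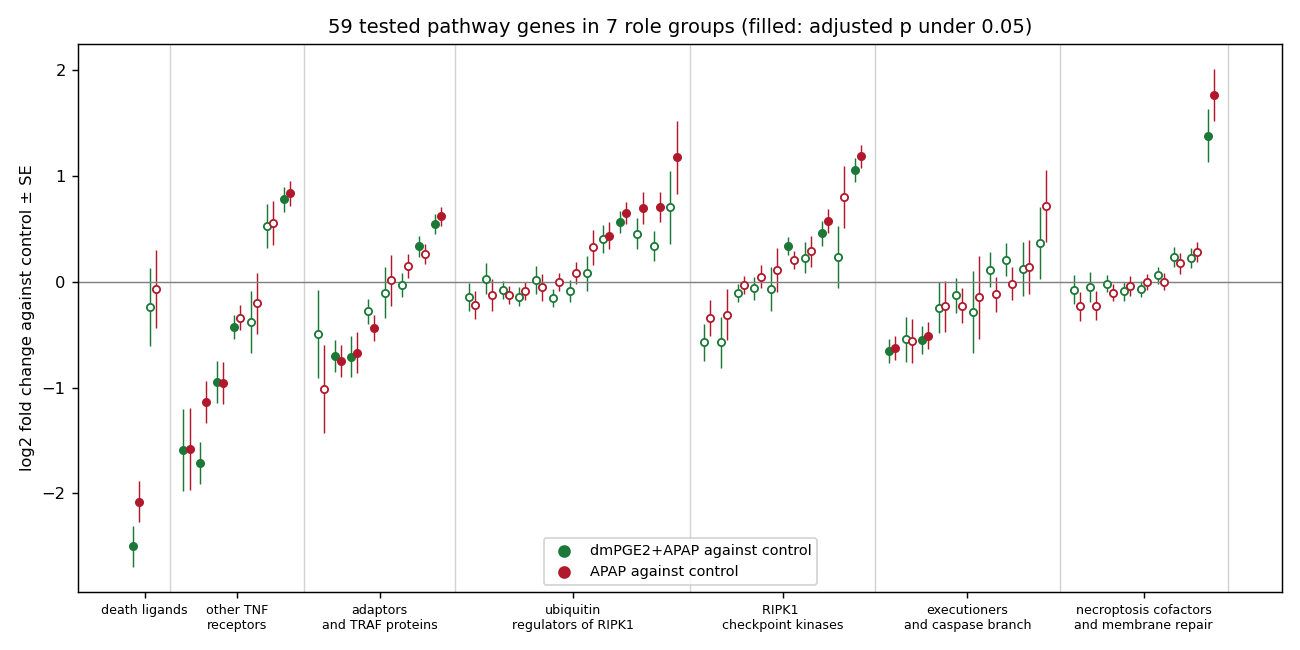
Log2 fold change ± SE against control of the 59 tested pathway genes in 7 role groups, with dmPGE2+APAP in green to the left and APAP in red to the right for each gene, and filled points for an adjusted p under 0.05. Tnfsf10 is the lowest point in both comparisons (log2 -2.50 in dmPGE2+APAP livers and -2.08 in APAP livers) and Hsp90aa1 the highest (1.38 in dmPGE2+APAP livers and 1.77 in APAP livers). Tnfsf10 passed the filter through control libraries only, so it had to come out lower.

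The lncRNA table lists 24 transcripts under the names of the members, of which 13 are annotated as processed transcripts, 10 as retained introns and 1, Cflar-OT1, is not in the annotation. They belong to 8 members, with 10 from Cflar and none from Tnfrsf1b or Casp8, and 17 passed the filter of 0.1 FPKM in 3 libraries. Only Tnfrsf12a-205, a retained intron of Tnfrsf12a (chr17:23676613-23677427), was called, and how reads were divided between it and the gene is not given in the sources used here. It had 0.859, 0.584 and 0.628 FPKM in dmPGE2+APAP livers, 0.804, 1.09 and 1.16 in APAP livers and 0.0796, 0.00778 and 0.00764 in controls. Treated libraries overlapped with each other and lay far above the controls, and it reached the filter in treated libraries only, so it had to come out higher. The fitted log2 value was 2.65 in dmPGE2+APAP livers (adjusted p = 0.00560) and 3.09 in APAP livers (adjusted p = 0.00211) against control, and -0.45 for dmPGE2+APAP against APAP (adjusted p = 0.846). With 0.01 added in place of 0.1 the values against control were 4.55 in dmPGE2+APAP livers and 5.04 in APAP livers, and with 1 added they were 0.73 in dmPGE2+APAP livers and 0.95 in APAP livers, since the controls are near 0. Among all 22984 transcripts tested, 1.81% were called in dmPGE2+APAP livers and 3.66% in APAP livers against control, and 0% between the treated groups, where limma gave 1 member transcript an unadjusted p under 0.05, Cflar-212 (adjusted p = 0.555).

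Among the other transcripts the most abundant, by the mean over all 9 libraries, was Ripk1-202, from the 5′ part of Ripk1 (chr13:34002400-34014686), at 3.99, 3.86 and 2.82 FPKM in dmPGE2+APAP livers, 3.73, 0.826 and 3.92 in APAP livers and 2.84, 2.42 and 3.05 in controls. APAP replicate 2, where it was lowest, was the library with the highest Ripk1 gene value in the mRNA table. The 2 Ripk1 transcripts together came to between 9.21% and 33.5% of the total of their own FPKM and that gene value. Tnfrsf12a-203 was at 4.83 FPKM in APAP replicate 3 and at most 0.401 elsewhere, and was not called. Cflar-209 was at 1.05 ± 0.106 FPKM in dmPGE2+APAP livers, 1.08 ± 0.0459 in APAP livers and 1.44 in controls on average, with all treated libraries below all controls as for the gene, and was not called (adjusted p = 0.456 in dmPGE2+APAP livers and 0.387 in APAP livers). Cflar-OT1, at 1.37 to 1.8 FPKM in controls, was listed at 0 in 2 libraries of each treated group and was not called (adjusted p = 0.215 in dmPGE2+APAP livers and 0.152 in APAP livers). Ripk3-206, the most abundant of the 4 Ripk3 transcripts by the mean over all 9 libraries, was at 0.0684, 0.0407 and 0.179 FPKM in dmPGE2+APAP livers, 0.0883, 0.205 and 0.424 in APAP livers, and 0.0596 in 1 control and 0 in the others. Fas-205 ranged between 0.00768 and 1.51 FPKM over all libraries, Mlkl-203 between 0 and 0.538, Tnfrsf1a-205 between 0.137 and 0.268 and Tnfrsf10b-202 and Tnfrsf10b-203 stayed at or under 0.0538.

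**Figure D4:**
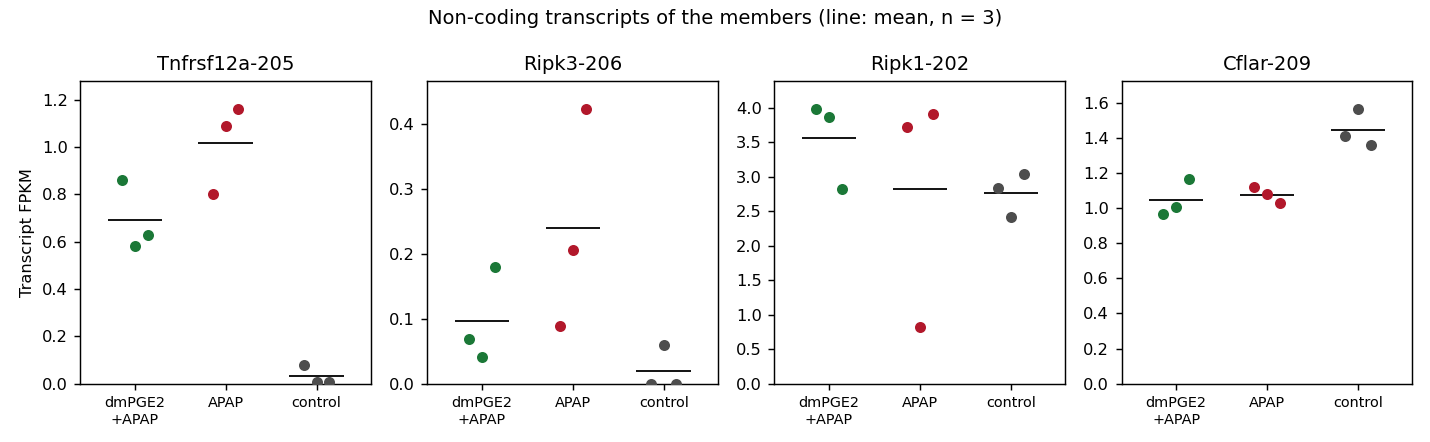
FPKM of 4 non-coding transcripts of the members in each library (points), with group means as lines (n = 3), each panel on its own linear axis from 0. Tnfrsf12a-205 and Cflar-209 separate the treated libraries from the controls, upward and downward, and Ripk1-202 shows a single low library, APAP replicate 2, at 0.826 FPKM.

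Patterns across the 9 libraries are given as a description, since the points share the same groups and scaling. On log2 values Tnfrsf12a and Tnfrsf1b followed each other most closely among the members (Pearson r = 0.93), and Tnfrsf12a also lay near Ripk3 (0.897) and Ripk1 (0.841), while Cflar ran against Tnfrsf12a (-0.701) and Fas (-0.731). Of all tested genes the nearest to Tnfrsf12a were Taf7 (0.997), Btg1 (0.995) and Zfp655 (0.995), and the nearest to Tnfrsf1b were Mrtfa (0.986), Med27 (0.984) and Itpkc (0.98). Fas lay nearest to Tmed4 (0.968), Tsr2 (0.96) and Skil (0.957), and Cflar to Wdr7 (0.973), Bcorl1 (0.958) and Fchsd2 (0.958). For Ripk1 they were Plat (0.961), Dmwd (0.954) and Fam234a (0.948), and for Ripk3 Desi2 (0.969), Itga5 (0.966) and Ubr4 (0.964).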

How the data were processed

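Total RNA of mouse liver was depleted of ribosomal RNA and made into 9 strand-marked libraries, per the labels' protocols. The submitters' processing notes name HISAT2 as well as GRCm38 (mm10), while the quantifier, the annotation, the filters and the use of strand are not given in the sources used here. The authors deposited FPKM per gene for mRNA and per transcript for lncRNA, per the file headers. Tables deposited as read counts scale with the genomic span of each locus and are not counts, so the count test that suits reads was not used, depth is unknown and no counting interval is given. No label explains the name of the control columns, which were assigned by elimination. All 10 members have the same coordinates in GENCODE M21.

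FPKM was divided by a scale factor (a trimmed mean of log ratios without weights, leaving out 30% at each end by ratio and 5% by abundance), 0.1 was added and the log2 taken, so folds of low genes are understated. Tests covered the 11557 genes that reached 0.5 FPKM, and the 22984 transcripts that reached 0.1 FPKM, in 3 or more libraries. The fit of all 9 libraries in limma 3.58.1 (R 4.3.3) used 3 group means and an abundance trend (6 residual degrees of freedom), two-sided tests, and Benjamini-Hochberg adjustment over all genes, or all transcripts, at 0.05. It was tested on simulated data. An exact test of 3 against 3 libraries cannot give a p under 0.1. Means and SDs are of deposited FPKM.

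The members, the 7 role groups and the marker lists were chosen with earlier results of these data known. Named are all 10 members, their called and most abundant transcripts, called pathway genes (at most 10 in each direction per comparison, by adjusted p), and the 3 nearest patterns of each called member. Beyond that rule, Tnf, Fasl, Lta, Tnfsf12 and Tnfsf15, the genes of low unadjusted p, and the transcripts Cflar-OT1 and Cflar-212 were named after their values were seen. Alternatives were other added values, filters, scalings and fits, the replicate block and each library left out, and, chosen after seeing the data, the FPKM of lncRNA-table transcripts added to the gene value. Shared replicate numbers do not pair the libraries.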

Additional observations from a re-analysis of the deposited data

How the results depend on the processing

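Of 537 repeated member tests 481 kept their direction and their side of the threshold, 36 lost the call, 11 gained one and 9 changed sign. Every change of sign was in dmPGE2+APAP against APAP at a log2 value near 0 and without a call: Tnfrsf1b at 0.0047 with no filter and 0.00015 with isoforms added, and Mlkl at 0.0398 with isoforms added. With single libraries left out, Tnfrsf1b ran between -0.22 and 0.14, Cflar between -0.16 and 0.032 and Mlkl between -0.33 and 0.029.

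The count of 5 members called in dmPGE2+APAP against control was 6 at a filter of 1 FPKM, with median log ratio scaling and with array weights, 4 with no rescaling, with only the 2 groups fitted and with isoforms added, 3 with no filter, 3 with no trend and 2 to 5 with single libraries left out. The 4 in APAP against control ran between 3 and 6, with 6 under no rescaling. The count of 17 pathway genes in dmPGE2+APAP against control was 9 to 16 with single libraries left out. The single called member transcript was not tested at a filter of 1 FPKM, which left 0 calls in both comparisons with control. With the replicate block 2 members were called in dmPGE2+APAP against control. Libraries with the same number deviated together with a correlation between -0.117 and 0.0706, with 0 of 9 over 0.1, so the numbers are not a pairing.

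Over all genes, 2425 calls in APAP against control became 1571 without APAP replicate 3, and 1884 in dmPGE2+APAP against control became 1025, 1128 and 1244 without dmPGE2+APAP replicates 2 and 3 and control replicate 2. The 0 calls between treated groups became 2 with only these groups fitted, 1 with array weights and 0 to 33 with single libraries left out (33 without dmPGE2+APAP replicate 1). With no rescaling 31.6% of the called genes were higher in APAP livers, in place of 56%, and 28.5% in dmPGE2+APAP livers, in place of 53.7%. Casp8, which missed the threshold in dmPGE2+APAP livers, passed in 7 of 20 settings, and in APAP livers in 1, no rescaling. Of 716 repeated tests of called pathway genes 95 lost the call and 0 changed sign. The cause of these changes was not tested. Depth is unknown, so how far counting error limits Ripk3, Mlkl and Tnfrsf10b, all near or under 1 FPKM, cannot be given.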
